A study of Mus musculus with 18 samples.

Results

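Unspliced inserts numbered above 5500 and up to 9000 are a stretch of an INSERT-seq library. They were chosen by number and by measured values: inserts in that range for which the RNA table lists no spliced form and which had a mean of at least 20 genomic DNA (gDNA) reads over the 9 gDNA libraries. Of 3500 inserts listed in the range, 263 had a spliced form listed and 227 more were under the gDNA minimum, 54 of them with no gDNA read in any library, which left 3010 members of 16461 inserts in all. They were compared with the 10227 other inserts that have no spliced form listed and meet the same minimum, called the others here. The range was proposed with results of these data known, and the spliced listing and the gDNA counts are themselves readouts, so differences between members and others are given as descriptions, without a test. The labels and tables used here do not say what an insert's number stands for or how the library was ordered, and they pair no insert with a sequence.

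In INSERT-seq, a pool of DNA sequences is integrated at one fixed place in the genome, so that RNA differs between cells of the pool with the inserted sequence. Here the pool sat where the Oct4 promoter makes its upstream antisense RNA, ahead of the fluorescent reporter mKate2, in female CAST/129 hybrid mouse embryonic stem cells. All groups carried 3 alleles on the 129 chromosome, labelled TagBFP2 at Oct4C, the INSERT-seqlibrary at Oct4ua157 and mKate2 at Oct4ua172, and all were grown on gelatin with LIF and inhibitors of MEK and GSK3. Upstream antisense RNAs are short noncoding transcripts made in the opposite direction from an active promoter, and most are ended early and degraded. The Restrictor complex, built around WDR82 and ZC3H4, is known to attenuate RNA polymerase II on such noncoding units. WDR82 is a WD-repeat protein and ZC3H4 a zinc finger protein. The siRNAs were siWDR82, siZC3H4 and, as control, a non-targeting one (siNT). Each was given to 3 cultures, and RNA and gDNA of every culture were sequenced, which made 18 libraries. Nothing in the labels says how the cultures were separated, so p-values measure no more than the spread between libraries of these cultures. The main fit treats RNA and gDNA of a culture as separate libraries. The labelled dose was 30 nM, except for siWDR82 replicates 2 and 3, labelled 31 and 32 nM, although the protocol names 30 nM for all. Reverse transcription started 221 nt downstream of the variable region, so an RNA that ended before that point was not counted. The libraries are amplicons of this locus, so the levels of Wdr82 and Zc3h4, which would check the knockdowns, were not analysed here.

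Insert reads numbered 32173068 to 52840375 per RNA library and 4584881 to 11510602 per gDNA library. The median member had 182 to 507 gDNA reads per library, fewer than the 232 to 586 of the median other insert in each of the 9 libraries. It had 507 to 550 RNA reads per siNT library and 662 to 1080 per knockdown library. The level used below is log2 of RNA over gDNA, each in insert CPM (the read count scaled to a common library total) with 0.5 CPM added, so a level of 0 means that an insert holds the same share of RNA as of gDNA. In a pooled culture, fewer cells making an insert's RNA and less RNA per cell cannot be told apart.

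With siNT, the members gave much less RNA than their share of the pool. They held 18.5%, 18.0% and 17.4% of gDNA reads in siNT replicates 1, 2 and 3, but 10.2%, 10.2% and 9.80% of insert RNA reads. The others held 70.8% to 72.0% of RNA reads and 68.7% to 70.6% of gDNA reads, and inserts with a spliced form or under the minimum held the rest. The median member level was -1.62, -1.44 and -1.37 in siNT replicates 1, 2 and 3, against -0.86, -0.78 and -0.83 for the others. Every siNT culture thus had members below others, by 0.65 ± 0.11 on the log2 scale (mean ± SD, n = 3 cultures). Among members 16.6 ± 1.3% lay above 0, against 32.0 ± 1.3% of the others (n = 3).

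Members covered a wide range of levels. From the 5th to the 95th percentile their siNT levels ran from -5.24 ± 0.38 to 0.98 ± 0.15 (n = 3), and those of the others from -4.86 ± 0.34 to 1.68 ± 0.10. The interquartile range was 2.35 ± 0.19 for members and 2.54 ± 0.25 for others. Ranked with the others in 5 equal groups by one siNT culture at a time, members made up all ranks: 24.8%, 25.03%, 22.6%, 17.6% and 9.97% of them fell in the groups from lowest to highest level. Levels of single members were also less repeatable. The median SD of a member over the 3 siNT cultures was 0.88, against 0.70 for the others, and levels of 2 siNT cultures correlated across members with r = 0.47 to 0.55 (n = 3010 inserts, which share libraries and are not replicates) and across others with r = 0.61 to 0.67 (n = 10227). Members had fewer gDNA and RNA reads than others, and the part of depth in that difference was not tested.

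By a fit across all 15484 inserts that meet the gDNA minimum, RNA over gDNA was below the library average for 1067 members, 35.4% of them, where 26.9% of all inserts tested were called below (edgeR quasi-likelihood test, adjusted p under 0.05). It was above the average for 80 members, 2.66% of them, against 12.3% of all inserts tested. With culture as a block, 1318 members were below and 120 above, where 33.2% and 15.7% of all inserts tested were called.

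The member with the highest mean siNT level was sequence_06434. It had 6949, 3925 and 3280 RNA reads against 180, 85 and 152 gDNA reads in siNT replicates 1, 2 and 3, which gave levels of 3.28, 3.57 and 2.40. The level stayed near 3 with siWDR82 (3.34 ± 0.61, n = 3) and siZC3H4 (2.85 ± 0.47, n = 3), so the 3 groups overlapped. The next, sequence_07312, shows how few gDNA reads can set a level. Its siNT RNA reads were 902, 383 and 1253, but its gDNA reads were 162, 10 and 1, and its levels were 0.51, 2.82 and 5.58.

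Inserts without a single RNA read in a culture, called silent here, were common among members in siNT cells. They numbered 323, 306 and 236 in siNT replicates 1, 2 and 3, or 10.7%, 10.2% and 7.84% of members, against 7.66%, 7.38% and 6.03% of the others. The share was higher in members in each culture, by 2.56 ± 0.66 percentage points (n = 3). Members, however, had fewer gDNA reads, and silence followed gDNA closely: in the lowest of 10 equal groups by gDNA, with means of 20 to 98.4 reads, 43.6 ± 5.0% of members and 39.9 ± 2.1% of others were silent, and in the highest group none were. Compared within these 10 groups, the members' excess was 0.91 ± 0.48 percentage points. Only 75 members, 2.49%, had no RNA read in any siNT culture, against 204 others, 1.99%. A further 489 members were silent in 1 or 2 of the siNT cultures, and 429 of these had more than 3 RNA reads over the 3 siNT cultures, so silence in a culture was seldom seen in all 3.

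In the knockdown cultures silent members were fewer and about as frequent as silent others. They numbered 108, 111 and 117 in siWDR82 replicates 1, 2 and 3 and 100, 134 and 121 in siZC3H4 replicates, all below every siNT culture. The share was 3.72 ± 0.15% with siWDR82 and 3.93 ± 0.57% with siZC3H4, against 3.40 ± 0.08% and 3.59 ± 0.45% of the others (n = 3 each). Of the 75 members without an siNT read, 53 had more than 3 RNA reads over the siWDR82 cultures and 48 over the siZC3H4 cultures. Of the 204 others without an siNT read, 138 and 139 did. Both sets were picked by their siNT reads, so reads in other cultures do not by themselves show a response. In the other direction, 24 members had no read in any siWDR82 culture and 35 none in any siZC3H4 culture, of which 5 and 6 had more than 3 reads over siNT. Among the others these numbered 91 and 110, of which 26 and 35 had more than 3 reads over siNT. Only 9 members had no RNA read in any of the 9 cultures. Intervals for such counts would cover counting error alone, since PCR reads are not independent molecules.

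The silent member with most gDNA reads was sequence_05953. It had 249, 360 and 481 gDNA reads and no RNA read in siNT replicates 1, 2 and 3. With siWDR82 it had 96, 108 and 114 RNA reads against 199, 281 and 123 gDNA reads, and with siZC3H4 58, 36 and 2 RNA reads against 223, 255 and 130. All 6 knockdown cultures thus had RNA where the 3 siNT cultures had none. Against a floor of 3 RNA reads over the siNT group, siWDR82 gave at least 108-fold higher RNA over gDNA (adjusted p = 0.0153 by edgeR). For siZC3H4 it was at least 45.3-fold higher (adjusted p = 0.0425 by edgeR, and 0.137 with a culture block). The siWDR82 call did not hold without any one siWDR82 replicate (adjusted p = 0.0773 to 0.0959). For siZC3H4 the call was lost without siZC3H4 replicate 1 or 2 (0.228 and 0.196), without siNT replicate 2 or 3 (0.0675 and 0.0664) and without siWDR82 replicate 1, 2 or 3 (0.0790, 0.0894 and 0.0889). The next, sequence_05939, had 287, 132 and 345 gDNA reads in siNT and stayed without RNA in all 3 siZC3H4 cultures. With siWDR82 its RNA reads were 0, 25 and 1, a change that did not pass (edgeR adjusted p = 0.256).

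With either Restrictor siRNA, the members held a larger share of insert RNA. It was 13.4%, 13.5% and 13.8% in siWDR82 replicates 1, 2 and 3 and 12.9% in each siZC3H4 replicate, all above the 9.80% to 10.2% of siNT. Their gDNA share was 17.8% to 18.3% with siWDR82 and 18.0% to 18.6% with siZC3H4, close to that in siNT. The median member level was -0.80, -0.79 and -0.70 with siWDR82, and -0.996, -0.93 and -0.92 with siZC3H4, each above every siNT culture. The interquartile range was narrower, at 1.68 ± 0.09 with siWDR82 and 1.87 ± 0.01 with siZC3H4 (n = 3 each), against 2.35 ± 0.19 in siNT. That of the others narrowed too, to 1.79 ± 0.08 and 2.02 ± 0.07, against 2.54 ± 0.25 in siNT. The low end differed most: the 5th percentile stood at -3.38 ± 0.10 and -3.58 ± 0.05, against -5.24 in siNT, while the 95th was 1.05 ± 0.02 and 0.98 ± 0.07, against 0.98. In the others the 5th percentile was also higher, at -3.31 and -3.70, against -4.86 in siNT. Levels at or near 0 RNA reads are set by the 0.5 CPM added and by gDNA reads. In siNT 9.58 ± 1.53% of members had no RNA read, so the size of the low-end difference depends on that floor.

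The change of a member was its level in a knockdown culture minus its mean siNT level. Its median was 0.73, 0.69 and 0.76 with siWDR82 replicates 1, 2 and 3, where the others had 0.35, 0.39 and 0.42. With siZC3H4 it was 0.56, 0.61 and 0.59, against 0.38, 0.43 and 0.35. Members exceeded others by 0.34 ± 0.03 with siWDR82 and by 0.20 ± 0.03 with siZC3H4 (n = 3 each), in all 6 knockdown cultures. When each siNT culture was set against the other 2 in the same way, members differed from others by -0.18, -0.0072 and 0.18, an SD of 0.18. The siWDR82 difference was therefore larger than the SD between siNT cultures and the siZC3H4 difference was about equal to it. A siNT culture is compared with fewer siNT cultures than a knockdown culture is, so that SD is not an exact measure of the error. The knockdowns share their siNT cultures, so their changes are not independent of each other. Changes were positive for 73.5 ± 0.9% of members with siWDR82 and 70.3 ± 1.2% with siZC3H4, against 63.9 ± 1.2% and 65.4 ± 1.6% of the others.

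The size of the change depends on the scale, while the difference between members and others does not depend on a scale factor per culture. With RNA scaled to spike-in reads, the median member change was 2.26, 1.143 and 1.63 in siWDR82 replicates 1, 2 and 3. In siZC3H4 replicates it was 0.14, 1.42 and 1.82. The median coefficient of the edgeR fit, which uses TMM scaling and another estimator than the level above, was 0.41 with siWDR82 and 0.27 with siZC3H4, against 0.081 and 0.096 for the others and 0.066 and 0.063 for all inserts tested.

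At matched siNT level the difference between members and others was smaller. Inserts were ranked by one siNT culture into 20 equal groups and the change was taken against the other siNT cultures, so that noise in the ranking culture did not enter it. Members then exceeded others by 0.17, 0.12 and 0.12 in siWDR82 replicates 1, 2 and 3 (mean 0.14 ± 0.03), and by 0.024, 0.011 and 0.070 in siZC3H4 replicates (mean 0.035 ± 0.031). The same comparison among the siNT cultures alone gave -0.13, 0.022 and 0.11, an SD of 0.12. The siZC3H4 value lies well inside that SD, and the siWDR82 value is only slightly larger than it. Matching on one noisy culture was also incomplete, since within the groups members still lay 0.12 lower than others in the remaining siNT cultures. Ranking by the mean of 2 siNT cultures, a choice made after the data were seen, left 0.083 and gave 0.12 ± 0.01 with siWDR82 and 0.031 ± 0.045 with siZC3H4. Without siNT replicate 1, in which the members' median was lowest, the values from ranking by one culture were 0.089 with siWDR82 and -0.0087 with siZC3H4. Without siNT replicate 3 they were 0.18 and 0.095, and without siZC3H4 replicate 3 the siZC3H4 value was 0.017.

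Within members, the change was smaller at higher siNT level, as in the others. In 5 equal groups from lowest to highest siNT level, the median change of members with siWDR82 was 1.17 ± 0.08, 0.98 ± 0.05, 0.61 ± 0.04, 0.39 ± 0.04 and 0.10 ± 0.08 (n = 3). The others in the same groups had 1.02 ± 0.09, 0.84 ± 0.03, 0.53 ± 0.02, 0.22 ± 0.02 and -0.19 ± 0.05. The widest gap, 0.30 ± 0.03 in the highest group, is within the SD of 0.44 that siNT cultures showed there. In the lowest group the gap of 0.14 ± 0.04 was above the siNT SD of 0.022. In the middle groups, in order, gaps of 0.14, 0.086 and 0.17 stood beside siNT SDs of 0.11, 0.099 and 0.16. With siZC3H4 members had 0.93 ± 0.05, 0.76 ± 0.02, 0.52 ± 0.02, 0.37 ± 0.03 and 0.035 ± 0.086, and their differences from the others ran from -0.0036 to 0.085. The difference in the lowest group, 0.061 ± 0.024, was above the siNT SD there, and those in the higher groups were within theirs. Each siNT SD rests on 3 cultures compared with one another, and these SDs ran from 0.022 to 0.44. Passing the smallest of them is weak evidence of a difference in the lowest group. Levels there include inserts at or near 0 RNA reads, set by the 0.5 CPM added and by gDNA. How far members lay below others in siNT level within these 5 groups was not measured.

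Members also varied along the number range. Members were split into 7 successive ranges of 500 numbers, with 416 to 445 members each. The first range, up to 6000, had median siNT levels from -1.22 to -1.03 over the 3 cultures, and the others had, in order, -1.27 ± 0.17, -1.49 ± 0.04, -1.44 ± 0.02, -1.49 ± 0.15, -1.84 ± 0.49 and -1.74 ± 0.16 (n = 3). The last range ran from -1.93 to -1.63 and so did not overlap with the first, while neighbouring ranges overlapped in 5 of 6 pairs. The range above 8000 to 8500 had the widest spread over cultures, from -2.37 to -1.42. The silent share in siNT was 7.21 ± 1.45% in the first range and 12.2 ± 2.3% above 8000 to 8500, and the medians of mean gDNA counts in these ranges were 394 and 334. With siWDR82 the median change was 0.55 ± 0.04 in the first range, below every culture of the others, and 0.71 to 0.79 in the other 6. With siZC3H4 it was 0.53 to 0.61 in all 7.

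Inserts just outside the range were compared with those just inside. The 429 unspliced inserts numbered above 5000 to 5500 had a median siNT level of -0.30 ± 0.10, and the 427 numbered above 9000 to 9500 had -1.93 ± 0.24. Blocks of 100 numbers below the lower edge also varied. From above 5000 to 5400 the 4 blocks stood at -0.96 ± 0.17, 0.17 ± 0.11, 0.23 ± 0.09 and -0.58 ± 0.12, with no even course toward the edge. The 80 inserts just outside it (above 5400 to 5500) stood at -0.73 ± 0.20 and the 84 just inside (above 5500 to 5600) at -0.90 ± 0.05, overlapping over the cultures. At the upper edge, the 78 inserts numbered above 8900 to 9000 had -1.80 ± 0.11 and the 86 above 9000 to 9100 had -1.65 ± 0.06. Over the cultures these ran from -1.93 to -1.74 and from -1.70 to -1.59, so they did not overlap, and the block outside was higher. At the gDNA minimum, 47 members with a mean of 20 to 30 gDNA reads had a median siNT level of -0.92 ± 0.28 and a silent share of 50.4 ± 8.9%, and 50 inserts of the range with 10 to 20 reads, which are not members, had -0.65 ± 0.57 and 68.7 ± 2.3%. The level of an insert with 0 RNA reads is set by the 0.5 CPM added and its gDNA reads. With so many silent, these medians do not show more RNA than in other members.

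Set against the wider neighbours, members lay in between in siNT level and in silent share, but their changes stood near those of one side. The 1295 unspliced inserts numbered above 4000 to 5500 had a median siNT level of -0.25 ± 0.15, a silent share of 5.17 ± 0.54% and changes of 0.26 ± 0.04 with siWDR82 and 0.35 ± 0.07 with siZC3H4. The 2545 numbered above 9000 to 12000 had -1.98 ± 0.27, 13.1 ± 1.7%, 0.73 ± 0.07 and 0.55 ± 0.06. The members' values were -1.47 ± 0.13, 9.58 ± 1.53%, 0.73 ± 0.04 and 0.58 ± 0.03 (n = 3 each). The changes of members were close to those of the higher-numbered neighbours, at a higher siNT level.

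Tested one by one, 23 members had RNA over gDNA raised by siWDR82, or 0.764% of 3010, where 0.581% of all inserts tested rose, and lowered it for 1, where 0.11% of all fell (interaction term of the edgeR fit, adjusted p under 0.05). siZC3H4 raised it for 16 members, or 0.532%, against 0.323% of all, and lowered it for 0, against 0.0258% of all. All of these shares are under 1%. At an unadjusted p under 0.05, siWDR82 had 306 members up and 33 down, where 1101 and 876 of the 15484 inserts tested were. For siZC3H4 it was 251 members up and 41 down, where 904 and 545 of all were. All 3 siWDR82 levels lay above all 3 siNT levels in 792 members, 26.3% of them, where this held for 20% of all inserts tested, and below in 51, where 6.87% of all did. For siZC3H4 the numbers were 675 (22.4%, with 18.1% of all) and 64 (2.13%, with 5.18% of all).

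Many members that rose were close to silent in siNT. Of the 23 that rose with siWDR82, 11 had 3 or fewer RNA reads in siNT as a whole. The median of the 23 was 4 RNA reads and 1208 gDNA reads there. The same held for 9 of the 16 that rose with siZC3H4. Rises with both siRNAs numbered 15, with the siNT cultures shared. Over all inserts tested, 90 rose with siWDR82 and 50 with siZC3H4. Their siNT reads and shared rises were not counted, so near silence and shared rises are not shown to be particular to members. The riser with most RNA in siNT had 21626 reads there and log2 changes of 1.51 with siWDR82 and 1.54 with siZC3H4. Rises were spread over the range, with 1 to 5 in each 500 numbers with siWDR82 and 1 to 4 with siZC3H4.

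These counts moved with the model and with single cultures. The counts over all 15484 inserts tested moved too. With the culture as a block, siWDR82 raised 64 members and lowered 5, where 1.44% and 1.67% of all inserts tested were called, and 22 of the 23 rises were among the 64. siZC3H4 raised 17 with the block, 12 of them shared, and lowered 0, where 0.342% and 0.0904% of all were called. Without siWDR82 replicates 1, 2 and 3, siWDR82 raised 7, 7 and 3 members (24, 29 and 13 of all inserts). Without siNT replicates 1, 2 and 3 it raised 44, 52 and 61 members (157, 178 and 228 of all). Without siZC3H4 replicates 1, 2 and 3, siZC3H4 raised 4, 1 and 5 members (13, 11 and 22 of all). Without siNT replicates 1, 2 and 3 it raised 41, 35 and 48 members (147, 120 and 182 of all), and without siWDR82 replicates 1 and 3 it raised 9 and 10 (33 and 37 of all). Falls with siZC3H4 numbered 6 members without siNT replicate 1 and 1 without siNT replicate 2 (102 and 5 of all).

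The lowest p among members that rose was that of sequence_07320. It had 983, 1390 and 486 gDNA reads but 0, 0 and 3 RNA reads in siNT replicates 1, 2 and 3. With siWDR82 it had 1071, 610 and 664 RNA reads against 2761, 313 and 498 gDNA reads, and with siZC3H4 801, 162 and 1122 against 1837, 661 and 463. Every knockdown culture held at least 162 RNA reads. Pooled over cultures, siWDR82 gave 353-fold higher RNA over gDNA (interval 121 to 1711, adjusted p = 0.00156 by edgeR) and siZC3H4 530-fold (interval 181 to 2568, adjusted p = 0.00159 by edgeR). The intervals are 95% Poisson intervals of the siNT reads and cover counting error only. All 3 siNT reads were in replicate 3. Without that replicate siNT had no read, and the fitted log2 changes, which then depend on the prior count, were 11.16 for siWDR82 (8.17 with all cultures) and 11.46 for siZC3H4 (8.47). Even with either siRNA its level stayed low, at -2.78 ± 0.89 with siWDR82 and -2.94 ± 0.66 with siZC3H4 (n = 3). By limma neither change passed (adjusted p = 0.0811 with siWDR82 and 0.1265 with siZC3H4). With RNA alone the siZC3H4 change did not pass (edgeR adjusted p = 0.0513).

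sequence_07426 is a riser that was measured well above 0 in siNT. It had 196, 71 and 117 RNA reads against 686, 704 and 983 gDNA reads in siNT, and levels of -3.62, -4.83 and -4.81. With siWDR82 it had 1823, 1887 and 2139 RNA reads against 545, 189 and 231 gDNA reads, and levels of -0.63, 0.38 and 0.085. With siZC3H4 the levels were -1.81, -1.79 and -1.82, between those of the other groups and overlapping with neither. The log2 change was 4.21 with siWDR82 (SE 0.59, edgeR adjusted p = 0.00138) and 2.49 with siZC3H4 (SE 0.58, edgeR adjusted p = 0.0693), so the second did not pass. It passed with library totals (0.0287), DESeq2 (0.00242), spike-in scaling (0.0286) and without siNT replicate 1 (0.0102). The siWDR82 change did not pass by limma (adjusted p = 0.0761).

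The 1 member that fell was sequence_08471. It was among the better expressed, with siNT levels of -0.15, 0.47 and 1.08 from 6851, 7267 and 10028 RNA reads. With siWDR82 its levels were -1.06, -0.93 and -1.01, all below siNT (log2 change -1.75, SE 0.36, adjusted p = 0.0245 by edgeR). It did not pass without any one siWDR82 replicate (adjusted p = 0.0986 to 0.128), without siNT replicate 3 (0.0689) and with spike-in scaling, where the change was -0.51 (0.601). Nor did it pass with library totals (edgeR adjusted p = 0.0539), with RNA alone (edgeR adjusted p = 0.0679) or by limma (adjusted p = 0.0884). With siZC3H4 the levels of -0.099, -0.38 and -0.61 overlapped with siNT (log2 change -1.12, edgeR adjusted p = 0.262). The next lowest p for a fall was that of sequence_06118 with siZC3H4, which did not pass (edgeR adjusted p = 0.107). It had no RNA read in any siZC3H4 culture, at 215, 164 and 128 gDNA reads, and 185, 0 and 108 RNA reads in siNT, so siNT replicate 2 overlapped with siZC3H4. Without that replicate it passed (adjusted p = 0.00615).

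Compared directly, siZC3H4 and siWDR82 differed for 0 of the 3010 members and 0% of all inserts tested (edgeR), with 49 members (1.63%) and 314 of all inserts (2.03%) at an unadjusted p under 0.05. DESeq2 called 7 members, and 11 of all inserts higher and 14 lower, and limma called 0 of either. The median fitted difference, siZC3H4 minus siWDR82, was -0.12 over members and 0.026 over the others. This does not show that the siRNAs acted alike on members.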

How the data were processed

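The authors deposited unnormalized read counts of each insert, separately for RNA and gDNA, with a column for every culture. The submitters' processing notes name build mm10, STAR, SAMtools, Bowtie2 2.3.4.3 and cutadapt 1.14, and their roles are not given in the sources used here. Per the labels' protocols, insert amplicons were made by PCR, and no molecular identifiers are mentioned, so reads include PCR duplicates. The p-values rest on the spread between libraries of these cultures. The header lacks a name for the column of sequence names, so the 9 names were matched to the 9 value columns. 

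RNA of an insert is unspliced plus spliced reads. edgeR 4.0.16 (R 4.3.3) quasi-likelihood was fitted to the counts of all 15484 inserts with a mean gDNA count of at least 20, with 6 group means, TMM within RNA and within gDNA, and Benjamini-Hochberg adjustment at 0.05. No RNA minimum was set, so all 3010 members were tested (2986 had a mean of at least 5 RNA reads). Levels used library totals. RNA and gDNA of a culture deviated together from their group means (r across inserts 0.287 to 0.468 in the 9 cultures), so they are pairs. The main fit, with 6 group means, does not use this pairing, and edgeR calls and p-values come from it unless another setting is named. The model with culture as a block is given where it changes a call or count. No libraries were duplicates (chi-square per degree of freedom at least 32.4). Named inserts are the 2 of lowest p in each direction, the 2 of highest siNT level and the 2 silent ones with most gDNA reads. Members, lists and tests were chosen with earlier results of these data known. Scripts were tested on simulated data. Alternatives included DESeq2 1.42.0, limma 3.58.1, other scalings and filters, and each culture left out with membership kept.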

Additional observations from a re-analysis of the deposited data

How the results depend on the processing

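With 2 CPM added in place of 0.5, members differed from others by -0.54 in siNT level and by 0.26 and 0.13 in their response to siWDR82 and siZC3H4. Against the unspliced inserts above 4000 to 5500 and above 9000 to 12000 alone, the level differed by -0.030, the silent share by -0.85 percentage points, which is the reverse direction, and the responses by 0.17 and 0.12. The lower-numbered of these lie above members in siNT level and the higher-numbered below. The silent share differed by 3.98 points when 3 or fewer reads counted as silent and by 0.91 within groups of like gDNA. With means in place of medians, the matched siZC3H4 difference was 0.080. The cause of these moves was not tested.

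Members called above and below the siNT library average were 140 and 1652 with limma, where 2606 and 6401 of all inserts tested were called. Rises with siWDR82 numbered 37 with library totals, 101 with DESeq2, 0 with limma, 64 with the replicate block, 178 with spike-in scaling and 58 with RNA alone; falls were 0, 2, 0, 5, 0 and 9. Over all inserts these settings gave 136, 336, 0, 223, 633 and 199 rises and 4, 178, 0, 258, 3 and 434 falls. Rises with siZC3H4 numbered 26 with library totals, 65 with DESeq2 and 0 with limma or RNA alone (88, 234 and 0 over all inserts), and DESeq2 called 4 falls (60 over all). DESeq2 called 7 members between the siRNAs. Among members the block moved no other count of calls by over 1.5 times. Over all inserts tested, falls with siZC3H4 numbered 14 with the block and 4 in the main fit.

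Leaving out one culture at a time, the siWDR82 response difference ranged from 0.28 to 0.41 and that of siZC3H4 from 0.13 to 0.24. At matched level the ranges were 0.089 to 0.18 and -0.0087 to 0.095, the lowest of the latter in the reverse direction, without siNT replicate 1. The ranking by 2 siNT cultures was chosen after seeing the data and kept the direction of both means. With it, siZC3H4 replicate 2 alone gave -0.017, the reverse direction. Rises with siWDR82 ranged from 3 to 61 and falls from 0 to 1; rises with siZC3H4 ranged from 1 to 48 and falls from 0 to 6. The siNT level difference and the silent share stayed within 1 SD without any one culture. The silent share was highest at few gDNA reads, where depth limits it.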
